A study of Rattus norvegicus with 2 samples.

Results

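The interferon response genes described here are 34 genes of the type I and type II interferon programme, taken by gene symbol from the feature list of a rat meniscus single-cell series. All 34 symbols were found among the 25399 genes listed. The members fall into 8 roles: transcription factors, antiviral effectors, RNA sensors, membrane restriction factors, interferon-inducible GTPases, immunoproteasome subunits, modifiers of the response, and chemokines. The series holds 1 droplet library labelled aged and 1 labelled young, both from meniscus, the fibrocartilage pad of the knee. Tissue was digested with protease and collagenase and sorted for viable cells. Neither library carries a treatment in its labels, and strain, sex, age in time units and number of animals are not given there. Since there is 1 library for each age, every difference below is a difference between 2 libraries, with no test across animals, and all intervals are exact 95% intervals that cover counting error only.

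Interferons are secreted proteins that cells release on sensing viral or other displaced nucleic acid (type I) or that T and natural killer cells release on activation (type II). They act through cell surface receptors, JAK kinases and STAT transcription factors. Type I signals assemble a complex that holds STAT2 and IRF9 and binds interferon-stimulated response elements, and type II signals lead to binding at gamma-activated sites. In cartilage and other joint tissue the programme is known from inflammation and from the response to nucleic acid in damaged cells.

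Upstream sequence was taken from RefSeq (build GRCr8), whose table held a window of 250 bases before to 50 after the start for 28 of the 34 members; Ifit2, Isg15, Mx2, Dhx58, Ifitm1 and Usp18 were not in it. The core of an interferon-stimulated response element, GAAA and GAAA with 2 free bases between them, was searched on both strands of the whole window and found in 18 of 28 member windows (64.3%), against 3.92% of all 33469 windows of the table. TTCNNNGAA, the core of a gamma-activated site, which reads alike on both strands, was found in 10 of 28 (35.7%), against 8.87% of all windows. Bst2, Ifitm3, Igtp, Oas1a, Parp14 and Psmb8 held both motifs. Stat2, Mx1, Oasl, Cmpk2, Psmb9 and Trim25 held neither in this window. A match describes the letters only. The 7 members whose levels recur below are shown by a stretch before their start, with its coordinates, read 5′ to 3′ on the gene's strand, with every match to either motif in capitals; the matches of Ifit3 and Rsad2 are on the opposite strand, and those of Bst2 overlap one another.
Ifi27, chr6:128355137-128355311, plus strand: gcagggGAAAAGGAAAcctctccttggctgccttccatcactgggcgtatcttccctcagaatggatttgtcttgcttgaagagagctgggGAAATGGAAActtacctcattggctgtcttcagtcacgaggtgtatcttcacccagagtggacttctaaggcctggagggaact
Ifitm3, chr1:205541759-205541933, minus strand: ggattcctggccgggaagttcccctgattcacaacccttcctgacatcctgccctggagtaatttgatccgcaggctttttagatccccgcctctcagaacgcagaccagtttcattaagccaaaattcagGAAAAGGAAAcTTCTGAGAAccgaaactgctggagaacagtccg
Ifitm2, chr1:205482349-205482523, minus strand: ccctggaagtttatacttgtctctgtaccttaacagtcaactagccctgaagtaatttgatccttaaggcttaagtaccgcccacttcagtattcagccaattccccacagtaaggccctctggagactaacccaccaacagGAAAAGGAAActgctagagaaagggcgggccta
Bst2, chr16:18254968-18255142, minus strand: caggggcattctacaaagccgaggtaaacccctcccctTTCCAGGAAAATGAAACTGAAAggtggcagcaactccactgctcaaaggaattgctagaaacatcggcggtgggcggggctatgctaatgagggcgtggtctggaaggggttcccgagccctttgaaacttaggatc
Ifit3, chr1:241527151-241527325, plus strand: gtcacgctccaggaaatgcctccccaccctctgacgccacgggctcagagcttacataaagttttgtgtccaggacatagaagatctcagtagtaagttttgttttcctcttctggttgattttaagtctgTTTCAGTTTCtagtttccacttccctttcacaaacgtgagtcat
Irf1, chr10:38417760-38417934, plus strand: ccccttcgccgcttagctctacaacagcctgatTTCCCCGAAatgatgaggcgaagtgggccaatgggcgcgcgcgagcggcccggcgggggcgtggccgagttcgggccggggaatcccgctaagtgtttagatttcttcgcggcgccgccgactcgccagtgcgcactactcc
Rsad2, chr6:48788121-48788295, minus strand: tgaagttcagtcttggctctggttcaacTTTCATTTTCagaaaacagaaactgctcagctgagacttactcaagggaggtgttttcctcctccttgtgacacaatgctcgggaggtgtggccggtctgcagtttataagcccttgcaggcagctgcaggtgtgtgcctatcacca

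Cells were assigned by raw counts of marker genes. The gates were Cd79a (B lineage, called B cells below), Jchain (plasma cells), S100a8 (neutrophils) and Csf1r (monocytes and macrophages). The others were Cd3e (T cells), Alas2 (erythroid precursors), Dcn or Chad without Ptprc (fibroblast- or chondrocyte-type stromal cells) and Cdh5 (endothelium). Vpreb1, Igll1 or Dntt, genes of B cell precursors, were found in 42.4% of aged and 32.5% of young Cd79a-gated cells. Ms4a1 without any of them was found in 10.9% and 18.5%. In each gate and both libraries, the summed level of the gate's own marker list exceeded that of every other list. Each list includes a gene that defined its gate, so this was set in part by the gating and is no independent check of cell identity. The 8 gates held 2377 of 6085 aged cells (39.1%) and 3123 of 8773 young cells (35.6%). Comparison was limited to 6 gates that held 50 or more cells on both sides. They were B (92 aged and 1186 young cells), neutrophil (807 and 1143), Csf1r (381 and 295), T (126 and 80), erythroid (61 and 173) and stromal (544 and 201). The plasma gate (343 and 35 cells) and the endothelial gate (23 and 10) are described without a comparison. Levels are UMIs of a gene per 1000000 UMIs of the gate (CPM), UMIs being unique molecules counted at the 3′ end. The libraries held 47228750 aged and 65051972 young UMIs and shared 18 cell barcodes, 10 of them kept in both.

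The summed members took a larger share of UMIs in the aged than in the young library in each of the 6 compared gates. Stromal cells stood at 0.725% of aged and 0.237% of young UMIs (log2 ratio 1.61, interval 1.58 to 1.65). Their make-up differed between the libraries, and in the stromal cells with Dcn and without Chad the ratio was 0.81, below that of T and Csf1r cells. T cells had 0.425% and 0.216% (0.98, 0.88 to 1.07), Csf1r cells 0.316% and 0.178% (0.83, 0.79 to 0.86), and B cells 0.165% and 0.0942% (0.81, 0.72 to 0.90). Neutrophils carried more of these transcripts than the other blood gates in the young library, at 0.393%, and 0.647% in the aged library (0.72, 0.69 to 0.75). Erythroid cells were lowest in the aged library, at 0.0738% against 0.0511% in the young (0.53, 0.38 to 0.68). Endothelial cells stood at 1.07% and 0.833%, or 0.656% and 0.665% without Ifi27, and plasma cells at 0.140% and 0.0354%. The summed level of 8 early response genes, which react to cell handling and activation, was also higher in aged stromal cells (1.76% against 1.05%), neutrophils (0.837% against 0.719%) and erythroid cells (0.0603% against 0.0385%). It was lower in aged B cells (0.156% against 0.212%) and nearly equal in Csf1r cells (0.552% and 0.553%). Its part in the member levels was not tested.

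**Figure D1:**
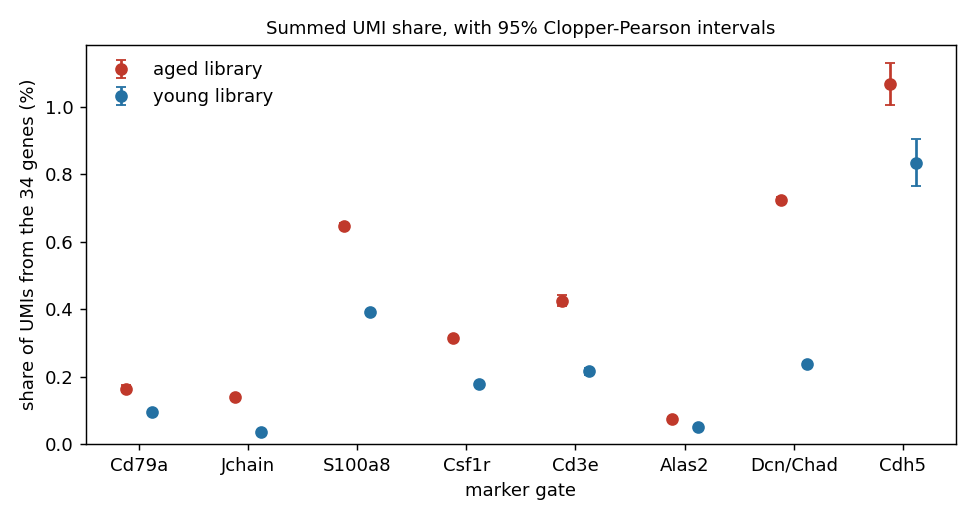
Share of UMIs from the 34 genes (y axis, percent) in each marker gate (x axis), with points for the aged (red) and young (blue) library and bars for 95% Clopper-Pearson intervals. The aged point lies above the young one in all 8 gates, for example at 0.0738% against 0.0511% in the Alas2 gate and 0.725% against 0.237% in the Dcn/Chad gate.

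Different genes made up the sum in different cells. Ifitm1 and Ifitm2, membrane proteins that block virus entry, were the leading members in neutrophils, where Ifitm1 alone held 37.3% of the aged and 37.5% of the young member UMIs. Ifitm3 led in stromal cells with 37.4% of aged and 34.1% of young member UMIs. The immunoproteasome subunit Psmb9 led in young B cells with 24.7%, while Ifi27, a small interferon-induced mitochondrial protein, led in aged B cells with 35.9%. Rsad2 (viperin, an antiviral enzyme) held 50.4% of the member UMIs of young erythroid cells and 21.2% of those of aged ones. Cxcl10, a chemokine that attracts activated T cells, held 56.6% in aged plasma cells.

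**Figure D2:**
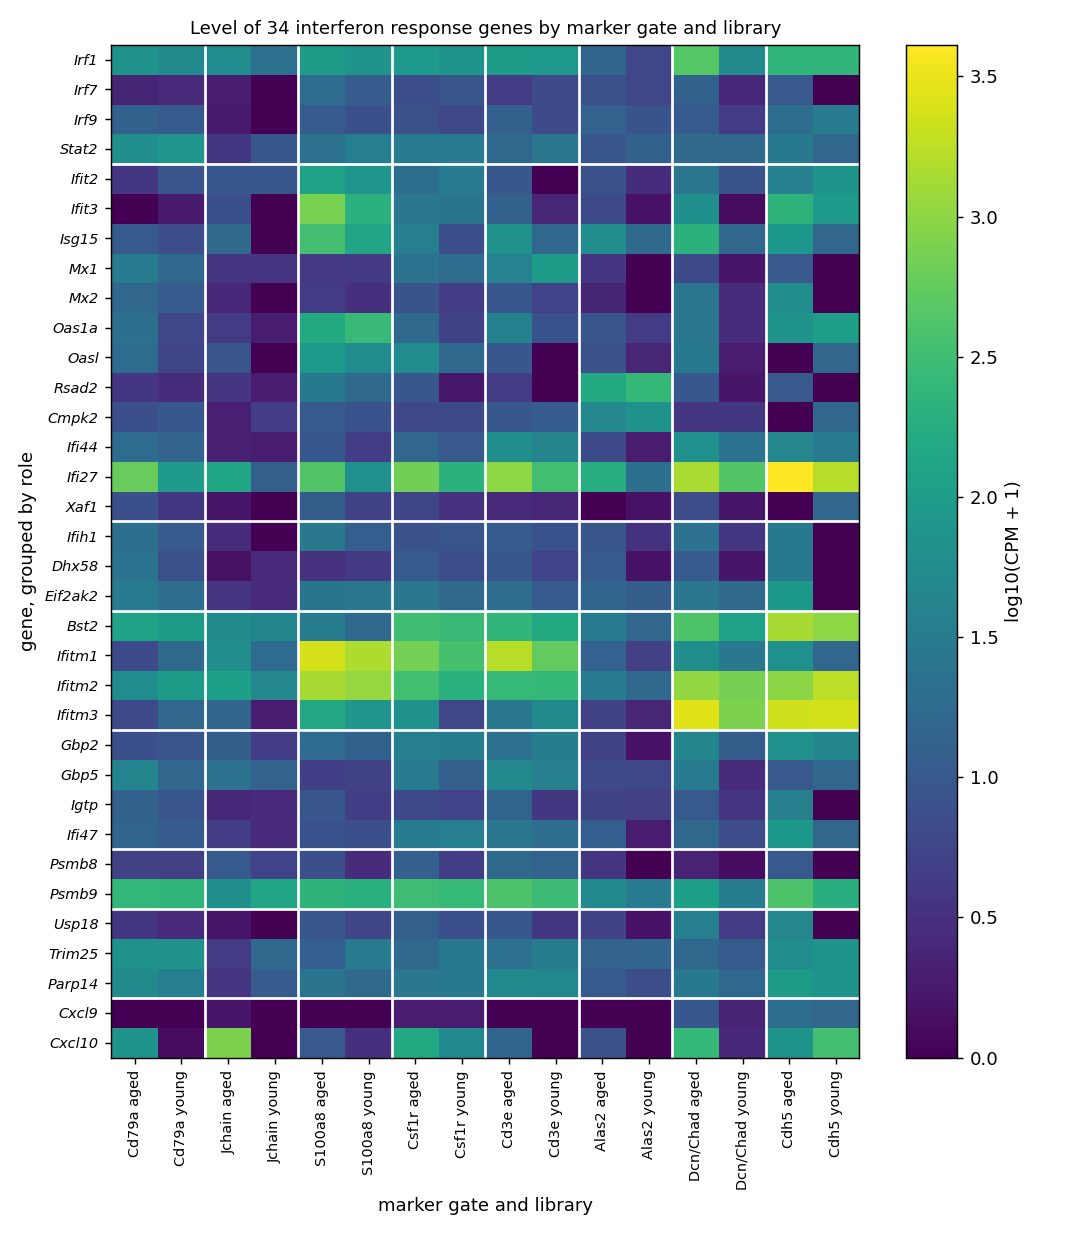
Heat map of the level of each gene (rows, grouped by role) in each marker gate and library (columns), coloured by log10(CPM + 1). Ifi27 is bright in most columns, Ifitm1 in the S100a8 and Cd3e columns, Ifitm3 in the Dcn/Chad and Cdh5 columns, Rsad2 in the Alas2 columns and Cxcl10 in the aged Jchain column, where it reached 791 CPM.

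Counted gene by gene, members with at least 20 summed counts in a gate were called apart when their CPM differed by at least 1.5-fold. In stromal cells 30 of 32 were higher in the aged library and 0 lower, where 20.4% of all 9371 genes measured in that gate were higher and 16.2% lower. Of these 32 members, 15 reached 20 counts in each library and 16 in the aged library only. The member median, which includes these 16, was 2.42 on the log2 scale, against 0.08 over all genes. In neutrophils 19 of 33 were higher (9.46% of all genes) and 3 lower (25.8%), and in Csf1r cells 17 of 33 were higher (11.2%) and 2 lower (15.1%). In B cells 13 of 32 were higher (6.93%) and 4 lower (28.8%). The member medians there were 0.65, 0.65 and 0.47, against medians over all genes of -0.22, -0.09 and -0.23. T cells had 5 of 17 higher (12.3%) and 3 lower (23.3%), with medians of 0.43 and -0.12, and 17 members had too few counts in that gate. Erythroid cells had 8 of 13 higher, where 37.9% of all genes were higher, and 1 lower (9.42%), with medians of 0.69 and 0.41. In the aged library only, 20 counts were reached by 4 members in neutrophils, 6 in Csf1r, 1 in B and 2 in T cells. In the young library only, it was 1 in neutrophils, 0 in Csf1r, 18 in B and 3 in T cells. Erythroid cells had 0 and 3 such members. All of these enter the counts and medians. Scaling by trimmed means (TMM) shifts all log2 ratios by 0.20 in neutrophils, 0.16 in T cells, 0.13 in B cells and -0.44 in erythroid cells. With it the count in T cells was 9 higher and 3 lower, and in erythroid cells 3 higher and 4 lower. The shares over all genes were not counted again with this scaling.

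Across the 6 compared gates, 2 members were at least 1.5-fold higher in the aged library in all of them, Ifi27 and Isg15, out of 9 that were measured in all. With them, 24 members were higher in at least 1 gate and lower in none. Of the rest, 8 were higher in 1 gate and lower in another: Ifit2, Mx1, Oas1a, Rsad2, Ifitm1, Ifitm2, Ifitm3 and Trim25. Stat2 was lower in neutrophils and T cells and higher nowhere, and Cmpk2 passed 1.5-fold in no gate. In single gates 6.93% to 37.9% of all genes were higher and 9.42% to 28.8% lower. Counts across gates were not made for all genes, so those of the members have no share to be set against.

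**Figure D3:**
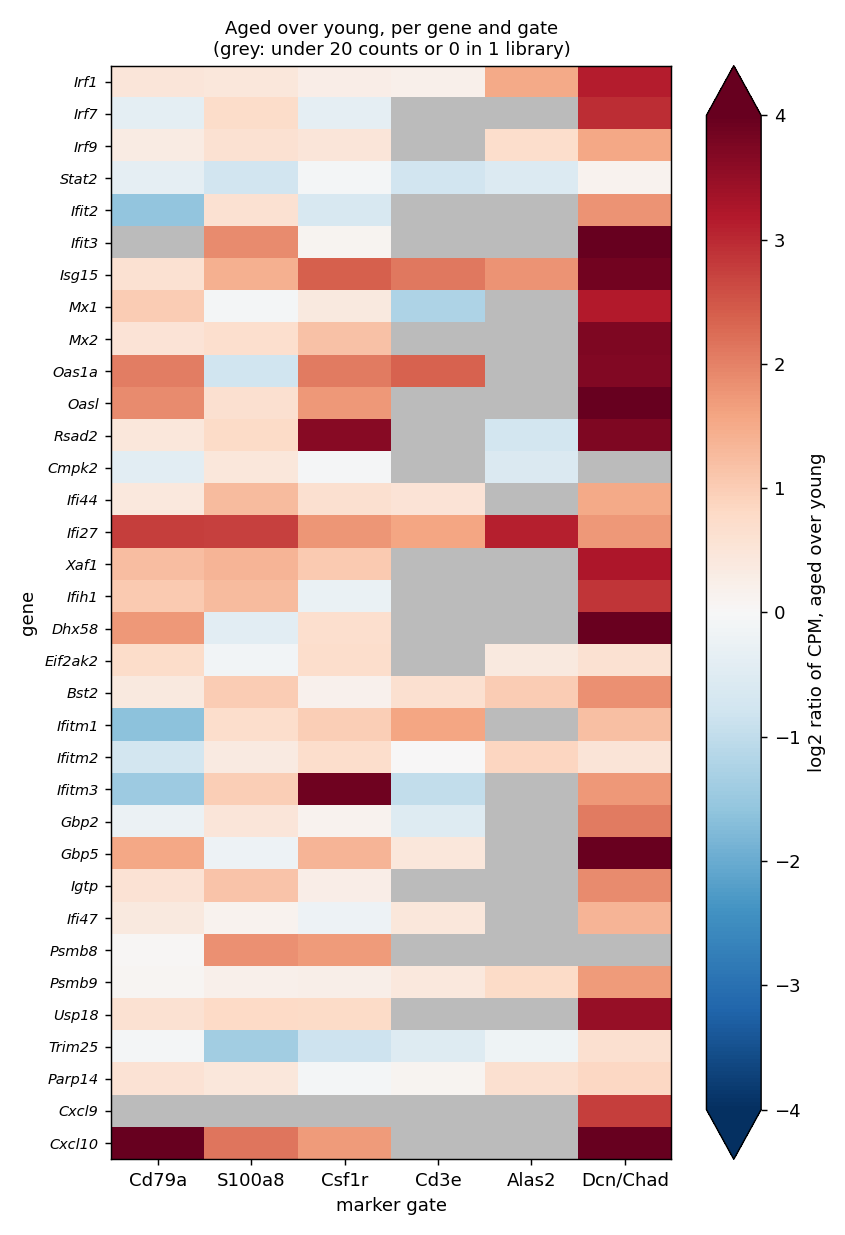
Heat map of the log2 ratio of CPM, aged over young, for each gene (rows) and each of the 6 compared gates (columns), red where the aged library is higher, blue where the young library is higher, and grey where the 2 libraries hold under 20 counts together or 1 of them none. The Dcn/Chad column is red for 30 of its 32 measured genes, and Ifi27 and Isg15 are red across the row.

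Among the transcription factors, Irf1, the factor that answers interferon gamma first, showed its largest difference in stromal cells. Its aged level there was 450 CPM and its young level 50.9 CPM (log2 3.14, 2.91 to 3.39). In the other aged gates it was 240 CPM in endothelial, 99.9 in T, 99.1 in neutrophil, 86.0 in Csf1r, 71.5 in B, 56.8 in plasma and 13.9 in erythroid cells. The young levels were 236 CPM in endothelial, 86.5 in T, 72.9 in neutrophil, 72.2 in Csf1r, 51.2 in B, 21.7 in plasma and 4.82 in erythroid cells. Stromal cells thus stood first of the 8 gates in the aged order and level with B cells in the young order. Drawn down to 2000 UMIs per cell, 34.7% of 502 aged stromal cells and 16 of 200 young ones held an Irf1 UMI, against 3.28% of 61 aged and 0.585% of 171 young erythroid cells, in which the free RNA of the suspension is read as well. Before thinning the stromal shares were 47.8% and 37.3%, at median depths of 5752 and 15042 UMIs. Stat2, a subunit of the type I signalling complex, went the other way in neutrophils, at 21.1 CPM aged and 35.6 CPM young (-0.76, -1.20 to -0.34). It was near equal in stromal cells (17.0 and 15.4 CPM) and Csf1r cells (29.0 and 30.3 CPM), and highest in B cells (62.1 and 78.8 CPM). Its T cell values, 15.2 and 26.0 CPM, rest on 9 and 18 counts (-0.77, -2.11 to 0.46). Irf9, which joins Stat2 in that complex, ranged over the compared gates from 6.87 to 12.5 CPM in the aged and 3.20 to 9.69 CPM in the young library, and was higher in 3 gates. Irf7, the amplifier of type I interferon production, ranged from 1.35 to 17.1 CPM aged and 1.60 to 10.4 CPM young and was higher in neutrophils and stromal cells.

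Ifi27 was at least 1.5-fold higher in the aged library in all 6 compared gates, as was Isg15. Its aged levels were 4107 CPM in endothelial, 1439 in stromal, 987 in T, 707 in Csf1r, 592 in B, 425 in neutrophil, 180 in erythroid and 138 in plasma cells. The young levels were 1683 CPM in endothelial, 435 in stromal, 330 in T, 208 in Csf1r, 86.3 in B, 64.2 in neutrophil, 20.7 in erythroid and 11.3 in plasma cells. The order of the gates was the same in both libraries, and the aged level was higher in each. The log2 ratios were 3.12 in erythroid (2.61 to 3.65), 2.78 in B (2.61 to 2.94), 2.73 in neutrophil (2.55 to 2.91), 1.76 in Csf1r (1.66 to 1.87), 1.72 in stromal (1.64 to 1.81) and 1.58 in T cells (1.36 to 1.81). At 2000 UMIs a cell, 62.7% of 75 aged and 16.6% of 1173 young B cells held an Ifi27 UMI, as did 43.6% of 669 aged and 10.2% of 960 young neutrophils and 24.6% of aged and 4.68% of young erythroid cells. Unthinned shares were 84.8% and 32.7% in B cells, 54.8% and 15.7% in neutrophils and 59.0% and 10.4% in erythroid cells, at median depths of 6107.5 and 5113.5, 3011 and 3473, and 10779 and 10753 UMIs. The share of Ifi27 held by free RNA was not measured here. Without Ifi27 the list ratio dropped from 0.81 to 0.31 in B cells and from 0.53 to 0.19 in erythroid cells.

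Isg15, the ubiquitin-like protein that is conjugated to other proteins in the response, was also at least 1.5-fold higher in each compared gate. With a stricter cell filter, which required 1000 genes and capped mitochondrial UMIs at 10%, it was lower in B cells (-0.52) and in neutrophils (-0.35). Its aged levels were 343 CPM in neutrophil, 211 in stromal, 83.2 in endothelial, 67.7 in T, 58.2 in erythroid, 33.8 in Csf1r, 16.6 in plasma and 9.44 in B cells. The young levels were 129 CPM in neutrophil, 16.9 in erythroid, 15.9 in T, 14.8 in endothelial, 14.4 in stromal, 6.48 in Csf1r, 6.15 in B and 0 in plasma cells. Neutrophils led in both libraries, while stromal cells were second only in the aged one. The log2 ratio was largest in stromal cells at 3.87 (3.44 to 4.34) and 1.41 in neutrophils (1.27 to 1.56); in B cells, 0.62 (-0.75 to 1.74), it rests on 7 aged counts. Single cells held 11 of the 42 aged and 12 of the 35 young Isg15 UMIs in the erythroid gate, and without these cells the levels were 44.3 and 11.2 CPM.

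Ifit3 and Ifit2, which bind foreign RNA and lie next to each other on rat chromosome 1, were neutrophil-weighted. Ifit3 reached 764 CPM in aged and 204 CPM in young neutrophils (1.90, 1.80 to 2.01). In other aged gates it was 222 CPM in endothelial, 62.2 in stromal, 26.3 in Csf1r, 11.9 in T, 6.56 in plasma, 5.54 in erythroid and 0 in B cells, and in other young gates 88.6 CPM in endothelial, 24.5 in Csf1r and at most 1.44 elsewhere. The stromal value stands on 205 aged counts, 55 of them in 1 cell, against 1 young count (log2 ratio 7.60, 5.11 to 12.9). Without that cell the aged stromal level was 45.7 CPM. Ifit2 showed a smaller neutrophil difference, 117 against 76.3 CPM (0.61, 0.40 to 0.83), and a larger stromal one, 25.5 against 7.37 CPM (1.79, 1.11 to 2.52). In Csf1r cells it was lower in the aged library, 19.5 against 30.1 CPM (-0.63, -1.02 to -0.24). The young B level of 8.01 CPM rests on 86 counts against 2 aged counts (-1.57, -4.64 to 0.33). In the Csf1r gate Ifit3 stood at 26.3 and 24.5 CPM (0.10, -0.27 to 0.48), so that Ifit2 passed 1.5-fold there and Ifit3 did not. With the stricter cell filter the Ifit2 ratio in neutrophils was -0.15.

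Oas1a, which makes the messenger that activates RNase L, was the one leading effector that was lower in aged neutrophils. It stood at 158 CPM there against 274 CPM in the young (-0.80, -0.95 to -0.65). In every other compared gate it was higher or rested on few counts: 24.9 against 1.92 CPM in stromal (3.70, 2.51 to 5.18), 16.6 against 3.93 in Csf1r (2.08, 1.32 to 2.92), 37.2 against 7.21 in T (2.37, 0.93 to 4.13), 20.2 against 4.85 in B (2.06, 1.13 to 2.91) and 8.31 against 3.38 in erythroid cells. Oas1a has close relatives in the rat genome, and reads from near-identical copies may be counted under another name. Its relative Oasl was higher in aged neutrophils with the cell filter used here, and lower with the stricter one (-0.39). It was 85.3 against 54.5 CPM in neutrophils (0.65, 0.39 to 0.90), 54.2 against 16.2 in Csf1r cells (1.74, 1.36 to 2.14), 27.9 against 0.961 in stromal cells (4.86, 3.27 to 7.16), 17.5 against 4.75 in B cells (1.88, 0.88 to 2.78), and 5 or fewer counts in T and erythroid cells. In the aged stromal gate 34 of 92 Oasl UMIs came from 1 cell, and the level without it was 17.7 CPM.

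Rsad2 and Cmpk2, adjacent genes on rat chromosome 6 whose products act on nucleotides, had their highest level among the compared gates in erythroid cells. Rsad2 was 157 CPM in aged and 258 CPM in young erythroid cells (-0.72, -1.02 to -0.42), and Cmpk2 was 45.7 and 68.0 CPM (-0.57, -1.17 to -0.02). Of these, the Rsad2 difference passed 1.5-fold and the Cmpk2 difference did not. At 2000 UMIs, Rsad2 was detected in 26.2% of the 61 aged erythroid cells and 36.3% of the 171 young ones, and before thinning in 52.5% and 60.7%. In B cells, the comparison for free RNA, the thinned shares were 0% of 75, where 3 cells would be 4%, and 0.938% of 1173. Cells with Rsad2 did not regularly hold Cmpk2: 6.25% of 16 aged erythroid cells with Rsad2 had a Cmpk2 UMI against 8.89% of the rest, and 21.0% of 62 young ones against 13.8%. In neutrophils Rsad2 was 28.3 against 16.8 CPM (0.75, 0.30 to 1.21), a direction that turned with the stricter cell filter (-1.62). It was higher in the aged library at 8.58 against 0.694 in Csf1r cells (3.63, 1.99 to 5.96) and 8.50 against 0.641 in stromal cells (3.73, 1.74 to 6.84). The Csf1r value includes 1 cell with 22 of 45 UMIs, and was 4.41 CPM without it. Cmpk2 was between 2.73 and 9.55 CPM in the other compared gates of the aged library and between 2.88 and 10.1 CPM in those of the young.

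Mx1, a GTPase that traps viral particles, was 38.9 CPM in aged and 92.3 CPM in young T cells (-1.24, -2.0 to -0.54), the compared gate where it was highest in both libraries. In that gate 6.35% of aged and 22.5% of young cells held a Mki67 or Top2a UMI, and the stromal marker list summed to 105 CPM (aged) and 1569 CPM (young). The part of these in the Mx1 values was not tested. In B cells Mx1 was 31.0 against 15.4 CPM (1.01, 0.32 to 1.65), with 11 of 23 aged UMIs in 1 cell and 16.3 CPM without it. It was 22.9 against 17.4 CPM in Csf1r cells, 5.77 against 0.641 in stromal cells (3.17, 1.12 to 6.32) and about 3 CPM in neutrophils of both libraries. Ifi44, a cytoplasmic interferon-induced protein, was 63.8 against 22.4 CPM in stromal cells (1.51, 1.11 to 1.92) and 62.6 against 43.3 in T cells (0.53, -0.20 to 1.28). It was 14.5 against 9.26 CPM in Csf1r cells, 8.56 against 3.52 in neutrophils (a ratio of -0.061 with the stricter cell filter), 17.5 against 13.0 in B cells and 5.54 against 0.965 in erythroid cells. Mx2 stayed between 1.39 and 25.5 CPM aged and between 0 and 10.1 CPM young and was higher in 3 gates. Xaf1, a pro-apoptotic protein, stayed at or under 10.5 CPM aged and 4.14 CPM young and was higher in 4 gates.

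The 3 RNA sensors were low throughout. Ifih1 (MDA5) ranged over the compared gates from 6.87 to 26.7 CPM in the aged and 2.41 to 11.2 CPM in the young library, Dhx58 (LGP2) from 2.31 to 22.9 and 0.482 to 6.90 CPM, and Eif2ak2 (PKR) from 13.9 to 31.0 and 10.1 to 26.5 CPM. Each was higher in 3 gates and lower in none. Their summed share was most apart in stromal cells, at 0.00571% against 0.00205% (1.48, 1.06 to 1.91).

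The membrane restriction factors divided the cell types. Ifitm1, Ifitm2 and Ifitm3 are neighbouring paralogues on rat chromosome 1, so counts may be exchanged between them where reads match more than 1 copy. Ifitm1 was a blood gene, at 2412 CPM in aged neutrophils, 1688 in T, 723 in Csf1r, 64.7 in endothelial, 61.3 in stromal, 58.6 in plasma, 12.5 in erythroid and 5.40 in B cells. The young levels were 1472 CPM in neutrophils, 562 in T, 362 in Csf1r, 26.6 in stromal, 17.3 in plasma, 17.0 in B, 14.8 in endothelial and 3.86 in erythroid cells. Neutrophils, T cells and Csf1r cells stood far above the other gates in both libraries, and all 3 were higher in the aged one. The log2 ratios were 1.59 in T (1.42 to 1.76), 1.00 in Csf1r (0.91 to 1.08) and 0.71 in neutrophils (0.67 to 0.76). B cells were the exception, with 4 aged and 182 young counts (-1.65, -3.54 to -0.27), 41 of the young ones in 1 cell. With looser gates that ratio was 1.12.

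Ifitm3 marked the stromal and endothelial gates. It was 2708 CPM in aged and 807 CPM in young stromal cells (1.75, 1.68 to 1.81), and 2285 and 2437 CPM in endothelial cells. The next levels were 151 and 75.6 CPM in neutrophils (1.00, 0.80 to 1.20) and 71.9 and 4.86 CPM in Csf1r cells (3.89, 3.25 to 4.60), and lymphoid, plasma and erythroid gates were at or under 53.3 CPM. At 2000 UMIs, 92.8% of 502 aged and 37.0% of 200 young stromal cells held an Ifitm3 UMI. The erythroid shares were 3.28% of aged and 0% of 171 young cells, where 3 cells would be 1.75%. Unthinned, the stromal shares were 93.0% and 53.7%. In the Csf1r gate Dcn, a stromal gene, moved with Ifitm3, from 3.47 CPM in the young to 264 CPM in the aged library, and its part in the Ifitm3 value was not tested. One cell held 93 of the 377 aged Csf1r-gate UMIs, and the level without it was 54.6 CPM. In the T gate all 37 young Ifitm3 UMIs lay in 1 cell, so the T cell ratio of -0.98 describes that cell, and in the B gate 67 of 158 young UMIs did. The stromal marker list summed to 22.9 CPM in the aged and 580 CPM in the young B gate, and its part in the Ifitm3 value was not tested.

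Ifitm2 was high in both compartments and differed less. It was 1400 against 1086 CPM in neutrophils (0.37, 0.31 to 0.42), 1069 against 753 in stromal cells (0.51, 0.43 to 0.58), 330 against 203 in Csf1r cells (0.70, 0.58 to 0.82) and 262 against 258 in T cells (0.02, -0.30 to 0.34). In B cells it was lower in the aged library, 55.3 against 91.6 CPM (-0.73, -1.22 to -0.28), but with looser and stricter gates that ratio was 0.091 and 0.33. In erythroid cells it was 29.1 against 15.9 CPM (0.87, 0.01 to 1.70), with 7 of 21 aged UMIs in 1 cell, 19.9 CPM without it, and a ratio of -0.32 in thinned cells. Endothelial cells held 971 and 1787 CPM and plasma cells 110 and 46.8 CPM. Bst2 (tetherin), which holds budding virus at the cell surface, was 412 against 116 CPM in stromal cells (1.83, 1.66 to 2.00). In Csf1r cells it was 314 against 282 CPM (0.16, 0.05 to 0.26), in T cells 239 against 154 (0.63, 0.26 to 1.01), in B cells 121 against 93.2 (0.38, 0.05 to 0.69), in neutrophils 31.9 against 16 (1.00, 0.55 to 1.45) and in erythroid cells 29.1 against 14.5 CPM (1.01, 0.13 to 1.86). Endothelial cells held 1378 and 1004 CPM. The young stromal level was thus below that of Csf1r, T and endothelial cells, and the aged one above Csf1r and T cells. Over the whole stromal gate, cells with Ifitm3 held Bst2 more often. In the aged library 55.8% of 466 cells with Ifitm3 had a Bst2 UMI, and 19.4% of the 36 others. In the young library it was 35.1% of 74 and 0.794% of the 126 others. Cells with at least 2 Chad UMIs, 7.72% of aged and 62.2% of young stromal cells, were lower in both genes than Dcn cells without Chad. The part of this make-up in the shares was not tested.

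The interferon-inducible GTPases, which attack the vacuoles of intracellular pathogens, were below 50 CPM in each compared gate. Gbp2 ranged from 4.16 to 44.3 CPM aged and 0.482 to 31.7 CPM young, Gbp5 from 3.62 to 49.1 and 1.92 to 36.0 CPM, Igtp from 4.16 to 13.5 and 2.56 to 8.2 CPM, and Ifi47 from 7.24 to 29.9 and 0.965 to 34.7 CPM. All 4 were higher in aged stromal cells, none was lower in any gate, and Gbp5 was also higher in B and Csf1r cells. Their summed share in stromal cells was 0.00993% against 0.00211% (2.23, 1.85 to 2.64). Psmb9, an immunoproteasome subunit that shapes peptides for MHC class I, was present in every gate and close between libraries in most. It was 400 against 297 CPM in T cells (0.43, 0.15 to 0.70), 305 against 259 in Csf1r cells (0.23, 0.12 to 0.35), 247 against 233 in B cells (0.08, -0.14 to 0.30), 221 against 193 in neutrophils (0.20, 0.05 to 0.34), 51.3 against 29.9 in erythroid cells (0.78, 0.15 to 1.39) and 107 against 33.0 in stromal cells (1.70, 1.38 to 2.03). Psmb9, like Irf1, passed 1.5-fold in the stromal and erythroid gates and in no other compared gate. In the erythroid gate Irf1 reached 20 counts only with both libraries summed. There 37.9% of all genes were higher, and the Psmb9 ratio was as low as 0.32 in the alternatives. Psmb8, its partner subunit, ranged from 1.21 to 16.9 CPM aged and 0 to 13.0 CPM young and was higher in neutrophils and Csf1r cells.

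Among the modifiers, Trim25, a ubiquitin ligase of the RIG-I pathway, was lower in aged neutrophils, 10.9 against 28.6 CPM (-1.40, -1.99 to -0.84), and in aged Csf1r cells, 16 against 28.2 CPM (-0.82, -1.24 to -0.40). It was 67.5 against 70.7 CPM in B cells, 22.0 against 31.7 in T cells, 12.5 against 14.0 in erythroid cells and 14.9 against 9.61 in stromal cells (0.63, -0.05 to 1.34). Trim25 and Stat2 were thus both below the young level in neutrophils, where 25.8% of all genes were at least 1.5-fold lower. Parp14, an ADP-ribosyltransferase, was 52.6 against 34.9 CPM in B cells (0.59, 0.08 to 1.07), 50.8 against 47.6 in T cells, 27.9 against 15.7 in stromal cells (0.83, 0.32 to 1.36), 26.1 against 27.5 in Csf1r cells, 23.4 against 17.0 in neutrophils and 9.70 against 6.27 in erythroid cells. Usp18, which removes Isg15 from proteins and damps the receptor, ranged from 2.70 to 35.8 CPM aged and 0.482 to 6.71 CPM young and was higher in 4 gates, most in stromal cells (3.48, 2.55 to 4.58).

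Cxcl10 UMIs lay in few cells of most gates. Its aged levels were 791 CPM in plasma, 255 in stromal, 154 in Csf1r, 74.0 in endothelial, 72.8 in B, 13.5 in T, 9.22 in neutrophil and 6.93 in erythroid cells. The young levels were 340 CPM in endothelial, 47.0 in Csf1r, 2.07 in neutrophil, 1.60 in stromal and 0.280 in B cells, and 0 in the plasma, T and erythroid gates. In the plasma gate 158 of 343 aged cells (46.1%) and 0 of 35 young cells held a Cxcl10 UMI. Median depths were 24405 and 30886 UMIs, and 3 of 35 cells would be 8.57%. At 2000 UMIs the aged share was 31.2%, against 1.64% of aged erythroid and 2.67% of aged B cells. The 35 richest of the 343 cells held 63.1% of the 6747 UMIs. The 4 leading genes of the gate, Igh-6 among them, held 76.5% of its aged and 53.8% of its young UMIs, which scales down the CPM of every other gene. In stromal cells the ratio was 7.31 (6.08 to 8.94), from 839 aged counts in 54 of the 544 cells, 245 of them in 1 cell, against 5 young counts. Without that cell the aged stromal level was 182 CPM. In Csf1r cells the log2 ratio was 1.72 (1.49 to 1.95), where 1 cell held 106 of 203 young UMIs and the young level without it was 22.5 CPM. All 23 young endothelial UMIs came from 1 cell, and 34 of the 54 aged B cell UMIs did. Its neighbour Cxcl9, a chemokine for the same receptor, was at 0 counts in the B, neutrophil, T and erythroid gates of both libraries. Cxcl9 was 8.80 against 1.28 CPM in stromal cells (2.78, 1.27 to 4.75), from 29 and 4 counts, and 0.954 against 0.926 CPM in Csf1r cells.

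The stromal gate held different cells in the 2 libraries. Chad, a cartilage matrix gene, reached 2 UMIs in 42 of 544 aged (7.72%) and 125 of 201 young cells (62.2%), and Col2a1 was detected in 1.65% and 58.7%. Members were therefore also compared within the Chad cells and within cells that had Dcn but no Chad. These subsets were not matched for Col2a1, found in 9 of all 544 aged and 118 of all 201 young stromal cells. Its part in the subset ratios was not tested. Among the 499 aged and 72 young Dcn cells without Chad, the summed share was 0.772% against 0.441% (log2 0.81, 0.76 to 0.85), about as far apart as in the blood gates. There 25 of 32 members were at least 1.5-fold higher (19.1% of all genes) and 0 lower (16.4%), with a median of 1.5 on the log2 scale against 0.0097. Members could pass the count minimum there through the aged library alone, as Ifit3 did, and such members enter both the count and the median. Among the 42 aged and 125 young Chad cells the share was 0.260% against 0.0863% (1.59, 1.47 to 1.71), with 9 of 11 members higher (17.6%) and 1 lower (33.2%), and a median of 1.72 against -0.19.

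The size of the ratio of single members varied between the stromal subsets, which was not tested. Irf1 was 444 against 59.0 CPM in Dcn cells (2.91, 2.57 to 3.27) and 496 against 46.7 CPM in Chad cells (3.41, 3.01 to 3.81), so its difference was similar in both. Ifitm3 was 2912 against 1800 CPM in Dcn cells (0.69, 0.63 to 0.76) and 688 against 73.9 CPM in Chad cells (3.22, 2.90 to 3.54). Bst2 was likewise closer in Dcn cells, 446 against 269 CPM (0.73, 0.55 to 0.90), than in Chad cells, 84.8 against 3.33 CPM (4.67, 3.36 to 6.24). Ifi27 was 1537 against 825 CPM (0.90, 0.80 to 1.00) and 476 against 141 CPM (1.76, 1.46 to 2.06). Ifitm2 was nearly level in both, at 1121 against 1084 CPM (0.05, -0.04 to 0.14) and 555 against 512 CPM (0.12, -0.13 to 0.35). Isg15 was 230 against 34.3 CPM in Dcn cells (2.75, 2.30 to 3.23) and Psmb9 114 against 55.0 CPM (1.06, 0.68 to 1.45). Cxcl10 was 274 against 3.99 CPM in Dcn cells (6.1, 4.88 to 7.73), and in Chad cells 24 aged counts stood against 0 young counts, at least 47.0-fold higher against a floor of 3 counts in the gate. Ifit3 had 205 aged and 0 young counts in Dcn cells, at least 28.8-fold higher by the same floor. Ifitm1 in Chad cells was 6.52 against 12.8 CPM, from 2 and 23 counts (-0.97, -4.10 to 1.05).

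**Figure D4:**
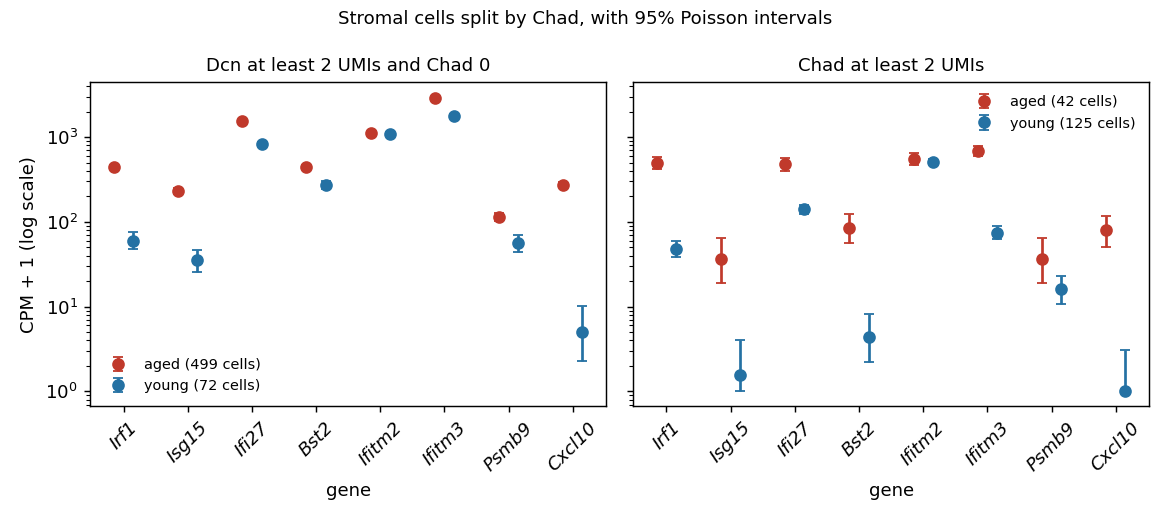
Levels (CPM + 1, log scale) of 8 members in stromal cells with Dcn and no Chad (left) and with at least 2 Chad UMIs (right), aged in red and young in blue, with 95% Poisson intervals. Irf1 is far apart in both panels (444 against 59.0 and 496 against 46.7 CPM), Ifitm3 and Bst2 mainly in the right one, and Ifitm2 in neither.

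The neutrophil gate was split by the granule genes Camp, Ngp and Ltf, which immature neutrophils make and mature ones shut off. Cells under 0.5% of UMIs from these genes (294 aged and 391 young) held 0.973% and 0.448% of UMIs from the members (1.12, 1.07 to 1.17), and cells at or above it (513 and 752) 0.521% and 0.373% (0.48, 0.45 to 0.52). Ifit3 was 2450 against 695 CPM in the granule-poor cells (1.82, 1.70 to 1.93) and 116 against 23.2 CPM in the granule-rich ones (2.32, 1.95 to 2.69). Isg15 followed the same order, at 1017 against 409 CPM (1.31, 1.16 to 1.47) and 83.9 against 25.8 CPM (1.70, 1.33 to 2.08). Oas1a was lower in the aged library in both, at 441 against 737 CPM (-0.74, -0.92 to -0.57) and 48.8 against 104 CPM (-1.09, -1.42 to -0.78). Ifitm1 was 2789 against 928 CPM (1.59, 1.49 to 1.69) in granule-poor and 2267 against 1672 CPM (0.44, 0.38 to 0.49) in granule-rich cells. Ifitm2 was the reverse of Ifit3 in its order, with 678 and 371 CPM in granule-poor and 1677 and 1349 CPM in granule-rich cells. Irf1 was 165 against 177 CPM (-0.10, -0.42 to 0.21) and 73.8 against 34.6 CPM (1.09, 0.75 to 1.45).

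Isg15 was detected more often in neutrophils with Ifit3 than in those without. At 2000 UMIs a cell, 27.8% of 669 aged and 13.9% of 960 young neutrophils held an Ifit3 UMI, against 3.28% of aged and 0% of young erythroid cells, and unthinned shares were 35.3% and 19.6%. Isg15 was found in 54.8% of the 186 aged cells with Ifit3 and in 6.42% of the rest, and in 35.3% of the 133 young cells with Ifit3 and 3.87% of the rest. Oas1a was found in 58.1% of aged cells with Ifit3 and 10.1% of the rest, and in 75.9% and 23.5% in the young. These shares are over the whole gate. Ifit3, Isg15 and Oas1a were each higher in granule-poor than in granule-rich cells of both libraries. The part of this make-up in the shares was not tested. The 81 richest of the 807 aged neutrophils for each gene held 68.9% of the Ifit3 and 80.1% of the Isg15 UMIs. The neutrophil values depend on the cell filter: when 1000 genes were required and mitochondrial UMIs capped at 10%, 138 aged and 311 young neutrophils were left, the list ratio was 0.18, and Isg15 was lower in the aged library (-0.35).

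**Figure D5:**
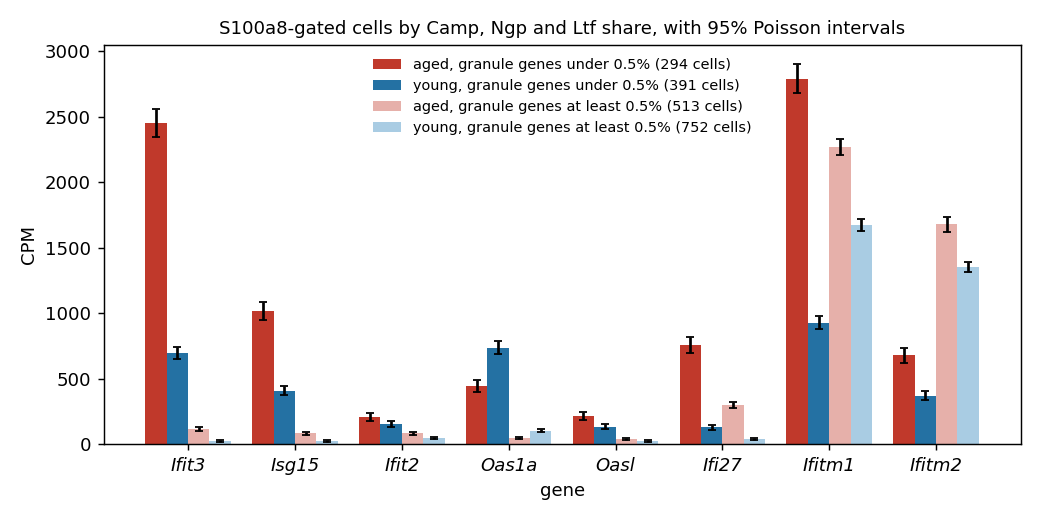
Levels (CPM, y axis) of 8 members in S100a8-gated cells, with bars for aged (red) and young (blue) cells under 0.5% granule genes (dark) and at or above it (pale), and 95% Poisson intervals. Ifit3 and Isg15 stand high in the dark bars (2450 and 695, and 1017 and 409 CPM), Ifitm2 in the pale ones, and Oas1a is the gene with the young bar above the aged one.

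The Csf1r gate was split by complement C1q, a marker of resident macrophages. Cells with at least 3 C1q UMIs (88 aged and 29 young) held 0.507% and 0.234% of UMIs from the members (1.11, 1.00 to 1.22), and the others (293 and 266) 0.289% and 0.173% (0.74). The neutrophil marker list summed to 656 CPM in the aged and 1491 CPM in the young Csf1r gate, and its part in the member values was not tested. Ifi27 was 1673 against 630 CPM in C1q cells (1.41, 1.20 to 1.62) and 573 against 170 CPM in the others (1.75, 1.63 to 1.87). Ifit2 was 57.7 against 39.4 CPM in C1q cells (0.55, -0.37 to 1.55) and 14.1 against 29.3 CPM in the others (-1.05, -1.51 to -0.60). Its lower aged level was thus seen in the cells under 3 C1q UMIs, while the interval in the C1q cells holds 0. Bst2 was 576 against 337 CPM (0.77, 0.47 to 1.08) and 278 against 277 CPM (0.00, -0.11 to 0.12). Ifi44 was 35.9 against 59.0 CPM (-0.72, -1.64 to 0.21) and 11.5 against 4.79 CPM (1.27, 0.49 to 2.10).

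Of the interferon pathway outside the list, 37 genes of a list of ligands, receptors, kinases, STATs, other IRFs, feedback genes and sensors were in the files. Interferon ligands were hardly found. Over all barcodes, aged and young, Ifnb1 had 2 and 1 counts, Ifna1 and Ifnk 1 and 0, Ifna4, Ifna5, Ifne, Ifnl1 and Ifnl3 0 and 0, and Ifng 43 and 14. In the T gate Ifng stood at 23.7 and 14.4 CPM (0.72, -0.56 to 2.05), from 14 and 10 counts. The other ligands had too few counts for a comparison. In stromal cells 13 of 23 measured pathway genes were at least 1.5-fold higher (20.4% of all genes) and 1, Ikbke, lower (16.2%). T cells had 8 of 17 higher (12.3%) and 3 lower (23.3%), and erythroid cells 7 of 12 higher (37.9%) and 1 lower (9.42%). Csf1r cells had 6 of 25 higher (11.2%) and 2 lower (15.1%), B cells 3 of 24 higher (6.93%) and 4 lower (28.8%), and neutrophils 3 of 22 higher (9.46%) and 5 lower (25.8%).

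The receptor chain Ifngr1 was 275 against 193 CPM in Csf1r cells (0.51, 0.38 to 0.63), 186 against 90.8 in T cells (1.04, 0.58 to 1.51), 114 against 64.9 in neutrophils (0.81, 0.59 to 1.04) and 65.0 against 58.3 in stromal cells (0.16, -0.14 to 0.45). The kinase Jak1 was 114 against 55.4 CPM in stromal cells (1.03, 0.77 to 1.30) and 50.4 against 64.4 in neutrophils (-0.36, -0.64 to -0.07). Irf2, which opposes Irf1 at shared sites, was 208 against 194 CPM in B cells and 34.3 against 24.3 in stromal cells (0.49, 0.06 to 0.93), a smaller difference there than that of Irf1. Irf8, a factor of myeloid cells, was 157 against 163 CPM in Csf1r cells. Socs1, the feedback inhibitor of JAK kinases, was 152 against 54.8 CPM in T cells (1.48, 0.91 to 2.06), 17.0 against 7.41 in Csf1r cells (1.20, 0.60 to 1.83), 18.1 against 8.29 in neutrophils (1.13, 0.51 to 1.75) and 57.1 against 55.7 in stromal cells (0.03, -0.27 to 0.34).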

How the data were processed

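Droplet 3′ single-cell libraries of rat meniscus, 1 aged and 1 young, were deposited as UMI counts per gene and barcode. The authors made these counts with Cell Ranger 6.1.1, per the file headers and the submitters' processing notes. Neither names a genome build or gene annotation. How reads that match several copies were counted is not stated.

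Barcodes under 500 genes, or above 20% of UMIs from 13 mitochondrial genes, were removed (2337 aged, 1141 young). Gates needed 2 UMIs of Cd79a, Csf1r, Cd3e, Alas2 or Cdh5, 2 UMIs of Dcn or Chad with Ptprc at 0, or S100a8 at 1% of UMIs. The planned Jchain gate of 1% of UMIs found 0 cells in either library, so 5 UMIs were used, chosen after seeing the data. No doublet caller was run; cells that passed more than 1 gate (71 aged, 79 young) were left out. Counts were summed per gate. Shares carry Clopper-Pearson intervals, levels exact Poisson intervals and log2 ratios exact conditional binomial 95% intervals. A 0 was set against 3 counts in the gate. For a share of 0, the value of 3 cells is given in place of an interval. Replicates are absent, so no p-value was made. Full values are given for the 20 members with at least 50 CPM in a compared gate, and ranges for the other 14. Pathway genes named are the ligands and the 6 with the highest levels. One of these 6 is not reported here. Marker, pathway and member lists were chosen with earlier results of these data known.

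Alternatives covered gate thresholds, cell filter, depth, scaling (edgeR 4.0.16 TMM), gate make-up, count minimum and fold. The ratio was tested on simulated counts of the stromal gate (9371 genes): intervals held the true fold for 95% of genes at 2-fold and 97% at 4-fold, and 94% of 2-fold and 3.69% of unchanged genes passed 1.5-fold. In the B gate (9489 genes) these were 96%, 98.0%, 82% and 7.13%. The simulated sums were independent Poisson counts, as the intervals assume, so this coverage checks the calculation only. Clumping of UMIs in single cells and differences between animals were not simulated. Versions were R 4.3.3, pandas 2.3.3, matplotlib 3.10.9, scipy 1.17.1, Python 3.11.15 and numpy 2.4.6.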

Additional observations from a re-analysis of the deposited data

Results flagged for a closer look

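These 7 members were at least 1.5-fold apart in opposite directions in 2 gates, with counting intervals that exclude 0 in both. The differences between gates were not tested, and how many of all genes meet this rule was not counted. The log2 ratio, aged over young, of Ifit2 was 1.79 in stromal and -0.63 in Csf1r cells. Mx1 was at 3.17 in stromal and -1.24 in T cells. Oas1a was at 3.70 in stromal cells and -0.80 in neutrophils, the gate with its highest level. Rsad2 was at 3.73 in stromal and -0.72 in erythroid cells, again the gate with its highest level. For the 3 Ifitm paralogues the opposite gate was B cells. Ifitm1 was at 1.59 in T and -1.65 in B cells, Ifitm2 at 0.87 in erythroid and -0.73 in B cells, and Ifitm3 at 3.89 in Csf1r and -1.45 in B cells. The aged B cell values of Ifitm1 and Ifitm3 rest on 4 counts each. The B cell sign turned in other gate settings for all 3, to 1.12 and 0.55 for Ifitm1, 0.091 and 0.33 for Ifitm2 and 0.18 for Ifitm3. In erythroid cells 7 of 21 aged Ifitm2 UMIs lay in 1 cell, the level without it was 19.9 CPM against 15.9 CPM in the young, and the ratio in thinned cells was -0.32. The Ifit2 ratio in Csf1r cells turned to 0.55 in those with at least 3 C1q UMIs.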

How the results depend on the processing

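With 1 library per age no animal could be left out. No paired analysis was possible because each group has 1 library and no result comes from a test. The list ratio (log2) was above 0 in 74 of 75 alternatives; the exception was B cells with Ms4a1 and without Vpreb1, Igll1 and Dntt (-0.24, 10 aged cells). In B cells it was 1.21 with stricter gates, 0.72 with cells in several gates kept, 0.92 as a mean over cells, 0.92 thinned, 0.94 with TMM, 0.90 in Vpreb1, Igll1 or Dntt cells, 0.94 without the leading Jchain-gate genes in the totals, 0.99 without Psmb9 and 0.31 without Ifi27. In neutrophils it was 0.18 with the stricter cell filter, 0.80 as a mean over cells, 0.83 thinned, 0.92 with TMM, 1.12 in granule-poor and 0.48 in granule-rich cells, and 0.64 without Ifi27. In Csf1r cells it was 0.76 with looser gates, 0.91 with TMM, 1.11 with at least 3 and 0.74 with under 3 C1q UMIs, 0.78 without Ifitm1 and 0.64 without Ifi27. In T cells it was 0.78 with looser gates, 0.82 with cells in several gates kept, 1.08 as a mean over cells, 1.12 thinned, 1.13 with TMM, 0.68 without Ifitm1 and 0.83 without Ifi27. In erythroid cells it was 1.10 with cells in several gates kept, 0.81 thinned, 0.093 with TMM, 1.20 without Rsad2 and 0.19 without Ifi27. In stromal cells it was 1.67 with looser gates, 1.78 thinned, 1.54 with TMM, 0.81 in Dcn cells without Chad, 0.79 without Col2a1 and 1.54 without Ifitm3.

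At 2-fold, members higher and lower were 10 and 1 in neutrophils, 11 and 0 in Csf1r cells, and 4 and 0 in erythroid cells, and 1 was lower in T cells. TMM gave 9 higher in T cells, 3 higher and 4 lower in erythroid cells and 1 lower in Csf1r cells. A minimum of 10 counts gave 8 higher in T cells and 50 counts 5 higher in erythroid cells. Looser gates gave 2 lower in B and 2 in erythroid cells, stricter gates 3 lower in erythroid and 1 in Csf1r cells, and Chad cells 9 higher and 1 lower. Apart from the Chad cells, shares over all genes were not counted in these settings.

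Signs turned with the stricter cell filter in neutrophils for Ifit2 (-0.15), Isg15 (-0.35), Oasl (-0.39), Rsad2 (-1.62) and Ifi44 (-0.061), and in C1q cells for Ifit2 (0.55) and Ifi44 (-0.72). In B cells they turned for Ifitm1 with looser gates (1.12) and several gates kept (0.55), Ifitm2 with looser (0.091) and stricter gates (0.33) and Ifitm3 with several gates kept (0.18). Ifitm1 turned in stromal cells with looser gates (-0.58) and in Chad cells (-0.97), and Ifitm2 in erythroid cells when thinned (-0.32). The cause was not tested. The ratio also turned for Isg15 in B cells with the stricter cell filter (-0.52) and Stat2 in T cells with looser gates (0.024), whose intervals hold 0. Of 920 alternatives for single members 69 turned the sign, these 17 from a ratio of at least 1.5-fold and 52 from a smaller one. Depth limits the T, erythroid and B values most, where many members have under 20 counts in 1 library.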

Other observations

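Most cells passed no gate, 3637 aged and 5571 young, and lie outside the comparisons above. Their member share was 0.227% in the aged and 0.116% in the young library (log2 0.97, 0.95 to 0.99). Ifi27 was 592 against 111 CPM there (2.41, 2.36 to 2.46), Ifitm1 397 against 160 (1.31, 1.26 to 1.36) and Cxcl10 110 against 3.17 (5.11, 4.83 to 5.41). Stat2, at 43.8 against 73.9 CPM (-0.76, -0.87 to -0.64), and Trim25, at 37.7 against 69.2 CPM (-0.88, -1.0 to -0.76), were lower in the aged library, as in neutrophils. Psmb9 was 272 against 224 CPM (0.28, 0.23 to 0.33) and Irf1 76.6 against 53.6 (0.52, 0.42 to 0.61). With looser gates the B gate held 592 aged and 3084 young cells, and Stat2 and Trim25 were highest in B cells among the compared gates. The make-up of the cells in no gate was not matched between the libraries, and its part in these values was not tested.

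In the plasma gate, Psmb9 was 62.9 CPM in the aged and 131 CPM in the young library. Cxcl10 was 791 and 0 CPM there, Ifi27 138 and 11.3 CPM and Socs1 13.6 and 2.60 CPM. The leading genes of this gate held 76.5% of its aged and 53.8% of its young UMIs. That scales down the CPM of every other gene, and more so in the aged library. Mki67 and Top2a summed to 11.7 CPM in the aged and 602 CPM in the young plasma gate. The B marker list summed to 250 and 590 CPM. The part of the scaling and of these markers in the plasma gate values, Psmb9 included, was not tested. In the endothelial gate, 23 aged and 10 young cells, Ifitm3 was 2285 and 2437 CPM and Ifi27 4107 and 1683 CPM, and without Ifi27 the member share was 0.656% and 0.665%.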
